A study of Rattus norvegicus with 43 samples.

Results

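Skeletal alpha-actin, the skeletal myosin heavy chains Myh2 and Myh3, the troponin subunits and myogenin were followed in A7r5 cells cultured at 3 concentrations of folic acid. The 10 genes considered were Acta1, Actc1, Myh2, Myh3, Tnnt1, Tnnt2, Tnnc1, Tnnc2, Tnni1 and Myog, and each was read from the probe set that the platform annotation assigns to that symbol alone, taking the one with the highest mean over the 43 arrays. Of the 10 genes, 9 had such a probe set, against 14218 genes on the whole array. Of these 9, 7 had a log2 value above 4 in at least 4 arrays and were tested, among 9095 genes that did so. Actc1 had only probe sets shared with Acta2, and Myog and Tnni1 stayed near background on every array.

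These genes encode parts of the sarcomere, the contractile unit of striated muscle, in which myosin heavy chains of the thick filament pull on actin of the thin filament. The troponin complex sits on the thin filament: troponin C binds calcium, troponin I inhibits the actin and myosin interaction, and troponin T anchors the complex to tropomyosin. Smooth muscle regulates contraction through myosin light chain phosphorylation and uses its own actin and myosin isoforms, so these genes are usually read as markers of striated rather than vascular smooth muscle, and myogenin is a basic helix-loop-helix transcription factor that drives skeletal muscle differentiation.

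A7r5 is a smooth muscle line derived from the aorta of embryonic rats, and all groups used this 1 line. Cells were kept in DMEM with 2.5, 10 or 100 ng/ml of folic acid, which stand for deficient, sufficient and excess medium, and total RNA was taken after 7, 14 or 21 days and hybridised to Affymetrix Rat230_2 arrays, on which most probe sets lie towards the 3' end of a transcript. Deficient and excess medium had 4 arrays each at day 7, and the other 7 groups had 5. The labels do not say whether replicates came from separate cultures, so a p-value here weighs a difference against the spread among arrays alone, which may be technical. Values are log2 expression, a group mean at or below 4 is called near background, and precision is set by having 4 or 5 arrays in a group.

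Promoter windows are shown because the 4 genes Acta1, Myh2, Myh3 and Tnnt1 had the largest differences of the 7 genes tested between excess and sufficient medium at day 21, while Tnnc2 differed by far less. The windows come from RefSeq (GRCr8) and run from 250 bases before to 50 after the annotated start, written 5' to 3' on the gene's strand. Capitals mark TATAAA and the CArG box, the serum response factor motif, wherever a match on either strand was found. The windows lie at chr19:68784145-68784444 (minus strand) for Acta1, chr10:52355489-52355788 (plus) for Myh2, chr10:52268935-52269234 (plus) for Myh3, chr1:78348785-78349084 (plus) for Tnnt1 and chr3:173935290-173935589 (minus) for Tnnc2.
Acta1: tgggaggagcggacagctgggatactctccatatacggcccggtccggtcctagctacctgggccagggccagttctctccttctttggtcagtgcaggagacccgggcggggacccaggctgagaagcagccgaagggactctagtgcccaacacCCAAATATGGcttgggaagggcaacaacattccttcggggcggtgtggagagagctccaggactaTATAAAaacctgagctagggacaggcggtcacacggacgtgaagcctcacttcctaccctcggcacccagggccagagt
Myh2: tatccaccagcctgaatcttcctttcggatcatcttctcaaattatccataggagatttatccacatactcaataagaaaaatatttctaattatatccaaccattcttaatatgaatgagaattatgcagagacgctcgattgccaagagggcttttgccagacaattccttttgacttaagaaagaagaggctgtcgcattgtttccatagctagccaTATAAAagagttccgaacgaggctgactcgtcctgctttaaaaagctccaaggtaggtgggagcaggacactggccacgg
Myh3: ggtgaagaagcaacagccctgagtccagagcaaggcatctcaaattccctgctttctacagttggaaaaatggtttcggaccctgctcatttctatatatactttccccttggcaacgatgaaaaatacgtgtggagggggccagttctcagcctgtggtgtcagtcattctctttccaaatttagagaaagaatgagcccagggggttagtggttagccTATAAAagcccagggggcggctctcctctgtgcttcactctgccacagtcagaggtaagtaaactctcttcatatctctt
Tnnt1: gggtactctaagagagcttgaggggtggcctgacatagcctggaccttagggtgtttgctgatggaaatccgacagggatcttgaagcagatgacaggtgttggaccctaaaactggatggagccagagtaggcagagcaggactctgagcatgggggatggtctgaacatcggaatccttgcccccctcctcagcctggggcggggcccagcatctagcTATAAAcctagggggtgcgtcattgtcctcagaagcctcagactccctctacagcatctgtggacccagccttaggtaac
Tnnc2: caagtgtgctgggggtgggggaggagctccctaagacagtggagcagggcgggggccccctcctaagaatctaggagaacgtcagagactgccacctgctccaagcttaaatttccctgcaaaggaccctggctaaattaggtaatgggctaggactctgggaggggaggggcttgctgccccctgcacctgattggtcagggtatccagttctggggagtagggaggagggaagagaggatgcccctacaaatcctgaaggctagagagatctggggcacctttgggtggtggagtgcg

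The table held a window for 9 of the 10 genes, and Tnnc1 is named only. TATAAA was found in 4 of the 9, starting 29 bases before the start site in Acta1 and 30 bases before it in Myh2, Myh3 and Tnnt1, whereas 14.2% of all 33469 windows held it. The CArG box was found in Acta1, 94 bases before the start, and in Actc1, 2 bases after it, against 1.64% of all windows. The E-box CANNTG was found in 7 of the 9 and in 72.1% of all windows, and its form CAGCTG in Acta1 and Tnnt2 and in 15.1% of all windows. No match to a strict MEF2 pattern, YTAWWWWTAR, was found in the 9, against 3.29% of all windows. Here Y is C or T, W is A or T, and R is A or G. The Myog window held CTATATTTAT, the Myh2 window CTAATTATAT and the Myh3 window CTATATATAC. Each departs from this pattern only at its last base and was not counted. Near matches were not searched for across the 9 windows. A match describes the letters in these windows only.

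The arrays had one scale, with medians between 3.66 and 3.72 and correlations between replicates of 0.991 to 0.998. The 16 smooth muscle contractile genes listed, Acta2, Tagln, Cnn1 and Myocd among them, had group means above 4 in each of the 9 groups, with Acta2 between 13.60 and 14.36 and Myh11, smooth muscle myosin, between 5.37 and 7.55. Serial numbers in the titles run through the groups up to 44 and again from 46, and 0 to 3 arrays per group lie in the second run. The log2 difference between the 3' and 5' beta-actin control probe sets, a sign of RNA integrity, averaged 2.21 in excess medium at day 14 and 2.22 at day 21 and between 1.63 and 1.93 in the other groups. A fit with this difference as a covariate was among the alternatives run. Its part in the differences was not tested beyond that, and values without the arrays above 2 are given beside the results.

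In sufficient medium all 7 genes tested rose between day 7 and day 21, where 29.6% of all genes tested did. Skeletal actin and Tnnc1 rose by under 1 log2 unit, and Tnnt1, slow skeletal troponin T, rose by over 4. Myh2 passed the filter only through arrays of days 14 and 21 in deficient and sufficient medium. These counts, and all counts of the 7 genes below, therefore describe the genes and support nothing about them as a set. The median of the 7 differences was 1.65, against -0.02 over all genes.

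Acta1, skeletal alpha-actin, was at 7.96, 7.97, 8.12, 8.17 and 8.18 on the day 7 arrays of sufficient medium and at 8.73, 8.78, 8.84, 8.90 and 8.90 on those of day 21. It rose by 0.75 ± 0.11 (SE), or 1.68-fold, with an adjusted p of 1.65e-07 in limma. The rise was complete by day 14, when Acta1 stood at 8.94 ± 0.08 (SD, n = 5), and the difference of day 21 from day 14 was -0.11 ± 0.11 (adjusted p = 0.45).

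The 2 myosin heavy chains started near or just above background. Myh3, the embryonic skeletal form, had values of 4.09, 4.20, 4.26, 4.28 and 4.41 at day 7, 6.25 ± 0.11 (SD, n = 5) at day 14, and 6.51, 6.66, 6.69, 6.90 and 6.94 at day 21. Myh2, the fast skeletal form called IIa, was near background at day 7, with 3.47, 3.50, 3.74, 3.77 and 3.90, reached 4.65 ± 0.39 at day 14, and had 5.50, 5.54, 5.88, 6.02 and 6.42 at day 21. No array of day 7 reached the lowest array of day 21 in either gene. Myh3 rose by 2.49 ± 0.12 (SE, adjusted p = 5.8e-21 in limma) and Myh2 by 2.20 ± 0.17 (adjusted p = 4.4e-14). The Myh2 difference is inexact, since a value near background does not follow the transcript in proportion.

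Among the troponins, Tnnt1 went from 5.23, 5.49, 5.59, 5.61 and 6.01 at day 7 to 9.67, 9.69, 9.73, 9.85 and 9.88 at day 21. It rose by 4.18 ± 0.15 (SE), 18.1-fold, with an adjusted p of 1.1e-24. Tnnt2, cardiac troponin T, rose from 10.22 ± 0.05 to 11.73 ± 0.05 (SD, n = 5 and 5), by 1.51 ± 0.06. Tnnc2, the calcium-binding subunit of fast skeletal muscle, rose from 10.88 ± 0.04 to 12.53 ± 0.06, by 1.65 ± 0.06. Tnnc1, its slow skeletal and cardiac counterpart, rose from 12.39 ± 0.08 to 12.90 ± 0.06, by 0.51 ± 0.07. The arrays of day 7 and day 21 did not overlap in any of these 4 genes, and the adjusted p-values in limma were at most 1.7e-08. The share of all genes tested without overlap was not counted, so a lack of overlap describes single genes only, here and elsewhere.

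By interval, all 7 genes rose from day 7 to day 14 in sufficient medium (19.9% of all genes rose), and 5 rose again from day 14 to day 21 (17.9%), the exceptions being Acta1 and Tnnc1, the latter with 0.03 ± 0.07. Deficient medium gave the same counts, with 7 rising from day 7 to day 14 (19.4% of all genes), 5 from day 14 to day 21 (20.9%) and 7 from day 7 to day 21 (30.7%). The widest rises of the 7 there were those of Tnnt1, by 4.50 ± 0.16 or 22.6-fold, Myh3, by 3.72 ± 0.12, and Myh2, by 3.29 ± 0.18 from a level near background. Acta1 and Tnnc1 differed between days 21 and 14 of deficient medium by 0.15 ± 0.11 and 0.11 ± 0.07, and neither passed the threshold.

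**Figure D1:**
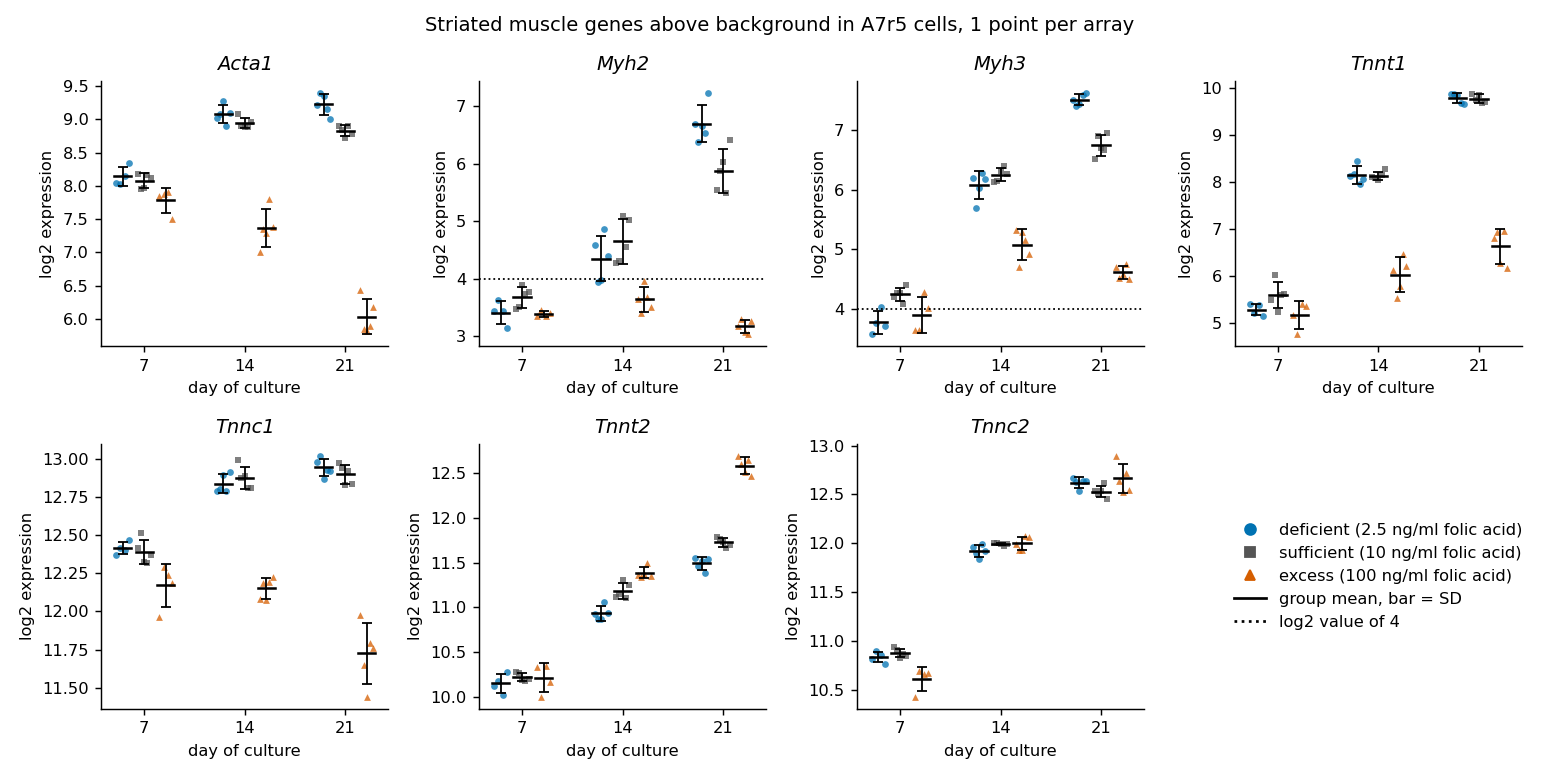
Log2 expression (vertical axes, a scale for each panel) against day of culture (7, 14 or 21) for the 7 genes tested, with 1 point per array, coloured by medium (deficient, sufficient, excess), a bar at the group mean and whiskers of 1 SD. Myh2 and Myh3 lie near background in some groups. Among the day 21 arrays, those of excess medium lie below all others in Acta1, Myh2, Myh3, Tnnt1 and Tnnc1 and above all others in Tnnt2.

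Excess medium parted from sufficient medium at day 14 and more widely at day 21, and the 7 genes did not go one way. At day 21, 5 of the 7 were lower in excess medium, where 19.3% of all genes tested were lower, and 2 were higher (24.4% of all genes). The 5 include Myh2, which passed the filter only through arrays of deficient and sufficient medium, so the count supports nothing about the set. Acta1, Myh2, Myh3 and Tnnt1 differed by more than 2 log2 units, Tnnc1 by 1.17, and Tnnt2 and Tnnc2 were the 2 that rose. In a bulk sample, fewer cells that express a gene and less RNA of it per cell cannot be told apart.

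On the thin filament, the 5 excess arrays of day 21 read 5.82, 5.86, 5.90, 6.18 and 6.43 for Acta1, and all lay below the lowest sufficient array, 8.73. Acta1 fell by 2.79 ± 0.11 (SE), 6.94-fold, with an adjusted p of 1.3e-22 in limma. The difference at day 14 was -1.57 ± 0.11, from arrays at 7.00, 7.29, 7.36, 7.38 and 7.80 against 8.89 to 9.07. At day 7 it was -0.30 ± 0.12 (95% confidence interval -0.53 to -0.06), which missed the threshold at an adjusted p of 0.16, although the 4 excess arrays, 7.50 to 7.90, all lay below the 5 sufficient ones.

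Of the myosins, Myh3 read 4.50, 4.52, 4.59, 4.70 and 4.76 in excess medium at day 21. These values lay under the lowest sufficient array, 6.51, and Myh3 fell by 2.12 ± 0.12 (4.36-fold, adjusted p = 5.3e-18). Myh2 read 3.04, 3.07, 3.18, 3.27 and 3.29, near background, and was lower by 2.70 ± 0.17, or 6.50-fold on this scale, a fold that the background makes inexact. At day 14 the differences were -1.17 ± 0.12 for Myh3 and -1.01 ± 0.17 for Myh2, and both passed. At day 7 they were -0.34 ± 0.12 and -0.28 ± 0.18 (adjusted p = 0.12 and 0.44).

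Tnnt1 had excess arrays of day 21 at 6.15, 6.27, 6.80, 6.92 and 6.96. These all lay below the lowest sufficient array, 9.67, and Tnnt1 fell by 3.14 ± 0.15 (SE), 8.83-fold, at an adjusted p of 5.6e-20. At day 14 the arrays read 5.53, 5.78, 6.11, 6.21 and 6.46, and the difference from sufficient medium was -2.10 ± 0.15. At day 7 the groups overlapped, with -0.42 ± 0.16 and an adjusted p of 0.13. Tnnc1 was lower by 0.72 ± 0.07 at day 14 and by 1.17 ± 0.07 at day 21 (adjusted p = 1.5e-17), where its excess arrays read 11.44, 11.65, 11.76, 11.79 and 11.98 against 12.83 to 12.97.

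Tnnt2 went the other way. Its excess arrays of day 21 read 12.47, 12.51, 12.60, 12.65 and 12.70, all above the sufficient arrays at 11.66, 11.70, 11.73, 11.76 and 11.78. The difference was 0.86 ± 0.06 (SE), 1.81-fold, with an adjusted p of 7.7e-15, and at day 14 it was 0.20 ± 0.06 (adjusted p = 0.0064). At day 7 it was -0.01 ± 0.06 (95% confidence interval -0.14 to 0.12). The genes of troponin T thus parted in direction, with slow skeletal Tnnt1 lower and cardiac Tnnt2 higher in the same arrays.

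Tnnc2 differed little. It was lower in excess medium at day 7 by 0.26 ± 0.06 (adjusted p = 0.011), with arrays at 10.43, 10.66, 10.67 and 10.69 against 10.83 to 10.94. At day 14 the difference was 0.00 ± 0.06 (95% confidence interval -0.11 to 0.12), and at day 21 it was 0.14 ± 0.06 (adjusted p = 0.040), with overlapping arrays of 12.53 to 12.90 against 12.45 to 12.61. The day 21 call was lost without sufficient replicate 1, 3, 4 or 6 or excess replicate 1 or 4, with a difference of 0.08 (adjusted p = 0.21) without excess replicate 1, and the difference was 0.01 (adjusted p = 0.97) in serials above 45. The day 7 call was lost without excess replicate 1 of that day, at -0.20 (adjusted p = 0.10).

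In counts, 1 of the 7 genes passed at day 7, Tnnc2, lower as were 2.1% of all genes. At day 14, 5 were lower (18.8% of all genes) and 1, Tnnt2, higher (22.3%). The median of the 7 differences was -1.01 at day 14 and -2.12 at day 21, against 0.01 and 0.03 over all genes.

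The 5 falls at day 21 were present in each array series, with adjusted p-values in limma below the threshold. Excess and sufficient medium each had 3 day 21 arrays with serials up to 45 and 2 above 45. In arrays with serials up to 45, and in those above 45, the differences were -2.76 and -2.84 for Acta1, -2.64 and -2.78 for Myh2, -2.03 and -2.25 for Myh3, -2.93 and -3.47 for Tnnt1 and -1.11 and -1.28 for Tnnc1. With arrays of a beta-actin difference up to 2 only, which left 2 excess arrays at each of days 14 and 21, they were -2.69, -2.63, -2.12, -2.90 and -1.09 in the same order. Tnnt2 gave 0.89, 0.81 and 0.92 in these 3 subsets. At day 14 Tnnt2 was higher by 0.27 in serials up to 45, 0.06 above 45 and 0.17 in arrays of low beta-actin difference, and the last 2 missed the threshold (adjusted p = 0.80 and 0.13). Above serial 45 that comparison set 3 excess arrays against 1 sufficient array, which is assumed to vary like the other groups.

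**Figure D2:**
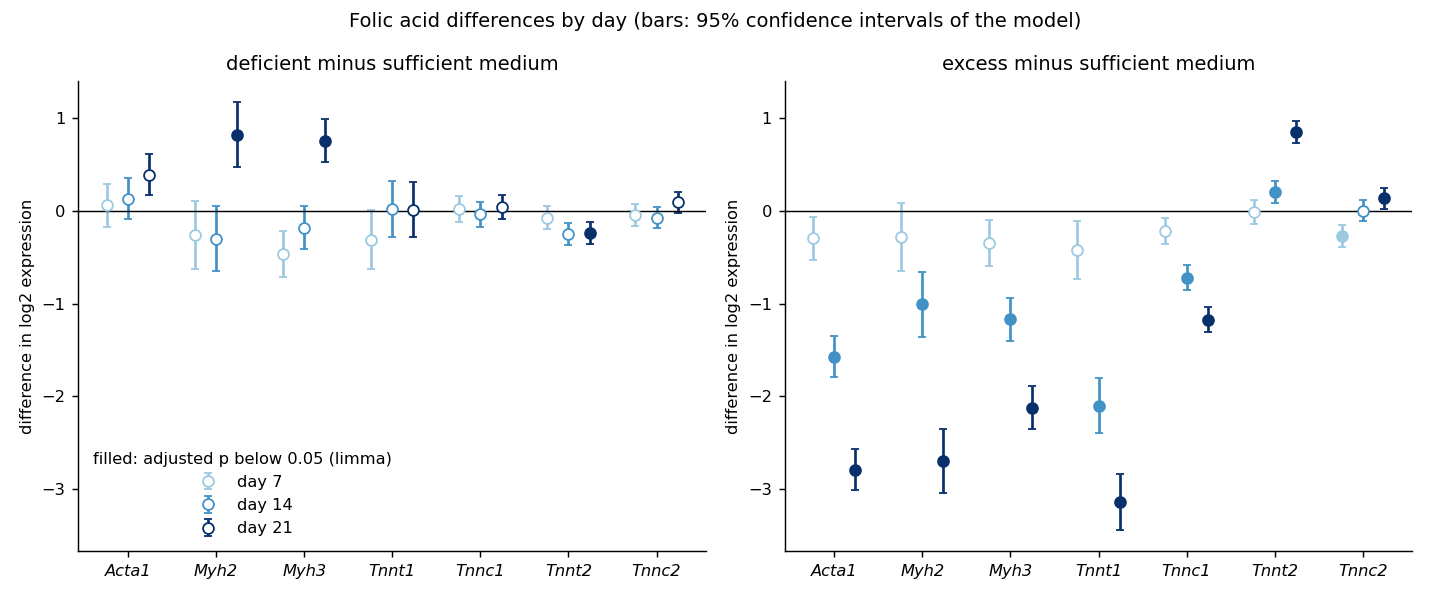
Differences in log2 expression (vertical axis) of deficient minus sufficient medium (left) and excess minus sufficient medium (right) for 7 genes at days 7, 14 and 21, with 95% confidence intervals of the model as bars and filled points where the adjusted p was below 0.05. On the right, Acta1, Myh2, Myh3, Tnnt1 and Tnnc1 fall further at day 21 than at day 14, to -3.14 for Tnnt1, and Tnnt2 rises to 0.86.

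In deficient medium the 2 myosins stood out at day 21. Against sufficient medium, 2 of the 7 genes were higher, Myh2 and Myh3, where 0.407% of all genes were, and 1 was lower, Tnnt2, where 0.374% were. The median difference of the 7 was 0.09, against -0.01 over all genes. In all, 71 of the 9095 genes passed.

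Myh3 read 7.40, 7.42, 7.49, 7.58 and 7.61 in deficient medium at day 21, above every sufficient array. The difference was 0.76 ± 0.12 (SE), 1.69-fold, with an adjusted p of 0.00016 in limma. Myh2 read 6.38, 6.53, 6.65, 6.70 and 7.23 against 5.50 to 6.42, so the lowest deficient array lay just under the highest sufficient one. It was higher by 0.83 ± 0.17, 1.77-fold, at an adjusted p of 0.011, and by 0.69 (adjusted p = 0.058) without deficient replicate 6. The brighter probe set shared by Myh2, Myh1 and Myh8, described below, was higher by 0.33 ± 0.10. It missed the threshold in the fit of all probe sets (adjusted p = 0.12 in limma). Tnnt2 was lower by 0.23 ± 0.06 (adjusted p = 0.046), with arrays at 11.38, 11.46, 11.52, 11.54 and 11.55 that all lay below the sufficient ones. That call was lost without any one of the deficient arrays or any of 4 of the 5 sufficient arrays, with adjusted p-values up to 0.13.

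Acta1 was at 9.00, 9.15, 9.21, 9.36 and 9.39 in deficient medium at day 21, above the 5 sufficient arrays, with a difference of 0.39 ± 0.11 (95% confidence interval 0.17 to 0.61) that missed the threshold (adjusted p = 0.075). Tnnt1 differed by 0.01 ± 0.15 (-0.28 to 0.31), Tnnc1 by 0.04 ± 0.07 (-0.09 to 0.18) and Tnnc2 by 0.09 ± 0.06 (-0.02 to 0.21).

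At days 7 and 14 none of the 7 genes passed between deficient and sufficient medium in limma, where 0% and 0.088% of all genes did. At an unadjusted p below 0.05, 1 of the 7 and 551 of all genes passed at day 7, and 1 of the 7 and 787 at day 14. The 1 at day 7 was Myh3, lower in deficient medium by 0.46 ± 0.12 without overlap (3.59 to 4.05 against 4.09 to 4.41), at an adjusted p of 0.47 and at the edge of background. The 1 at day 14 was Tnnt2, lower by 0.25 ± 0.06 without overlap (10.87 to 11.06 against 11.11 to 11.30), at an adjusted p of 0.069.

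Deficient and excess medium were also set against each other. The comparisons within a day share their arrays, so their values stand side by side and are not independent. Deficient medium was higher at day 21 for 5 genes (22.4% of all genes were higher) and lower for Tnnt2 (28.5%). The differences were 3.19 ± 0.11 for Acta1, 3.53 ± 0.17 for Myh2, 2.88 ± 0.12 for Myh3, 3.16 ± 0.15 for Tnnt1 and 1.22 ± 0.07 for Tnnc1, and Tnnt2 was lower by 1.09 ± 0.06, all with adjusted p-values of at most 3.7e-18. Tnnc2 differed by -0.05 ± 0.06 (95% confidence interval -0.16 to 0.07). At day 14 the same 5 genes were higher (16.9% of all genes) and Tnnt2 lower (23.4%). At day 7, Tnnc1 and Tnnc2 were higher, by 0.24 ± 0.07 and 0.22 ± 0.06 (adjusted p = 0.045 and 0.029), against 4.04% of all genes, and with the replicate number as a block neither passed.

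Within excess medium the course over time split the genes. From day 7 to day 21, 4 of the 7 rose (34.6% of all genes) and 2 fell (25.4%). Tnnt2 rose by 2.37 ± 0.06, Tnnc2 by 2.06 ± 0.06, Tnnt1 by 1.46 ± 0.16 and Myh3 by 0.71 ± 0.12. Acta1 fell by 1.75 ± 0.12, from arrays of 7.50 to 7.90 to arrays of 5.82 to 6.43, and Tnnc1 fell by 0.45 ± 0.07. Myh2 stayed near background, with a difference of -0.22 ± 0.18 (adjusted p = 0.30).

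By interval in excess medium, 4 genes rose from day 7 to day 14 (27.3% of all genes) and Acta1 fell by 0.42 ± 0.12 (20.9% of all genes fell), where the difference was -0.16 (adjusted p = 0.42) in serials up to 45 and -0.66 (adjusted p = 0.052) above 45, with 1 array at day 7. From day 14 to day 21, 3 rose (11.9% of all genes), namely Tnnt1, Tnnt2 and Tnnc2, and 4 fell (11.2%). The rise of Tnnt1, 0.60 ± 0.15, missed the threshold with only the groups compared (adjusted p = 0.053) and in serials above 45 (0.41, adjusted p = 0.18), and was 1.00 in arrays of low beta-actin difference. Acta1 fell by 1.33 ± 0.11 there and Tnnc1 by 0.43 ± 0.07. Myh3 had been at 4.71, 4.93, 5.15, 5.28 and 5.32 at day 14 and fell by 0.46 ± 0.12 (adjusted p = 0.0025), with a difference of -0.38 in serials up to 45 (adjusted p = 0.11), -0.56 above 45 (adjusted p = 0.12) and -0.20 in arrays of low beta-actin difference (adjusted p = 0.55). Myh2 fell by 0.47 ± 0.17 within values near background, and its call was lost in 13 of 23 alternatives.

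The change of each medium's effect with time was tested as an interaction in limma. The excess effect differed between day 21 and day 7 for all 7 genes tested, 5 towards lower values (7.53% of all genes) and 2 towards higher ones (17%). The differences of the effect were -2.72 ± 0.21 for Tnnt1, -2.498 ± 0.16 for Acta1, -2.42 ± 0.25 for Myh2, -1.78 ± 0.17 for Myh3, -0.96 ± 0.10 for Tnnc1, 0.87 ± 0.09 for Tnnt2 and 0.40 ± 0.08 for Tnnc2, with adjusted p-values of at most 0.00025. In serials above 45, with 1 array in each day 7 group, the differences were 0.15 for Tnnc2 (adjusted p = 0.74), -2.35 for Myh2 (0.065) and -1.64 for Myh3 (0.072), and these 3 missed the threshold. The deficiency effect differed for Myh3 alone among the 7, by 1.22 ± 0.17 (adjusted p = 8e-05; 0.022% of all genes were higher), and its value is inexact, since Myh3 was at 3.78 and 4.25 in the day 7 groups. Myh2 gave 1.09 ± 0.25 and missed the threshold (adjusted p = 0.091).

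Ordered by group mean, Myh3 was highest in deficient medium at day 21, then in sufficient medium at day 21, and these groups did not overlap with each other or with the next. The day 14 groups of sufficient and deficient medium overlapped, as did the excess groups of days 14 and 21, and as did all neighbours among the day 7 groups. Tnnt1 had both day 21 groups of deficient and sufficient medium on top, overlapping, then the day 14 groups of the same media, overlapping, and then the 2 later excess groups, 6.62 ± 0.38 at day 21 and 6.02 ± 0.37 at day 14, which also overlapped with each other. The lowest excess day 14 array of Tnnt1 lay among those of day 7. Acta1 and Tnnc1 shared an order at the bottom, where excess medium ran from day 7 down to day 14 and day 21, and only the day 7 and day 14 groups overlapped.

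Tnnt2 was ordered by day and, within days 14 and 21, by folic acid. Excess medium at day 21 was highest at 12.59 ± 0.09 (SD, n = 5), then sufficient at 11.73 ± 0.05 and deficient at 11.49 ± 0.07, and the same order of media held at day 14, at 11.39 ± 0.06, 11.18 ± 0.09 and 10.93 ± 0.08. Only the deficient group of day 21 and the excess group of day 14 overlapped among these 6, and the 3 day 7 groups overlapped with each other. Tnnc2 was ordered by day, and its 3 groups of day 21 overlapped, as did those of day 14, and at day 7 only the excess group stood below the other 2.

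Over the 9 group means, Acta1 and Tnnc1 had a Pearson r of 0.976, Myh3 and Tnnt1 of 0.971, Tnnt2 and Tnnc2 of 0.927, Myh2 and Myh3 of 0.922, and Acta1 and Tnnt2 of -0.331. The 9 means share their arrays across genes, and these values are descriptions. By the same measure over all genes tested, the gene closest to Acta1 was Prnd (0.993), to Myh2 Plekhh2 (0.993), to Myh3 Lysmd1 (0.994), to Tnnt1 Atp6ap1 (0.998), to Tnnt2 Mylip (0.994), to Tnnc1 Rnase4 (0.992) and to Tnnc2 Selenop (0.997). Prnd, which encodes the prion-like protein doppel, was also among the 3 closest to Tnnc1, at 0.990. The next 2 were Ggcx and Tmed4 for Acta1, Fthl17a and Pfn2 for Myh2, Tmem14a and Zc3h8 for Myh3, Upk1b and Ufsp2 for Tnnt1, Eepd1 and Mmp2 for Tnnt2, Creb3 before Prnd for Tnnc1, and Enpp5 and Sdc2 for Tnnc2, with r between 0.981 and 0.996.

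Myog, the only transcription factor of the 10, lay between 2.99 and 3.92 on the 43 arrays, and Tnni1, slow skeletal troponin I, had probe set means of 2.76 and 2.72, with 0 arrays above 4 for either gene. In a fit without the filter, Myog was higher in excess than in sufficient medium by 0.41 ± 0.10 at day 14 and 0.27 ± 0.10 at day 21 (adjusted p = 0.0020 and 0.037), where 14% and 15.9% of 14217 genes were higher. Tnni1 was higher at day 21 than at day 7 of sufficient medium by 0.39 ± 0.09 (adjusted p = 0.00024), where 22.6% of genes were. All of these values lie under 4, so they show no level of either transcript. The second Tnnt2 probe set also stayed near background, at a mean of 2.06.

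Probe sets that the annotation gives several genes cannot be assigned to 1 of them. Of these, 5 were shared by Acta2 and Actc1, cardiac alpha-actin, with means of 6.21, 4.00, 3.59, 3.06 and 2.14. In a fit of 15743 probe sets, added after seeing the data, the brightest differed between excess and sufficient medium by -0.34 ± 0.14 at day 14 and -0.33 ± 0.14 at day 21 (adjusted p = 0.056 and 0.065). The next, at the edge of background, was lower by 0.55 ± 0.16 and 0.39 ± 0.16 (adjusted p = 0.0058 and 0.048), where 18.4% and 17.2% of all probe sets were lower. A probe set shared by Myh2, Myh1 and Myh8, the last 2 being adult fast and perinatal skeletal myosins, had a mean of 9.92 and was lower in excess medium by 0.33 ± 0.10 at day 14 and 0.54 ± 0.10 at day 21 (adjusted p = 0.0079 and 2.8e-05).

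**Figure D3:**
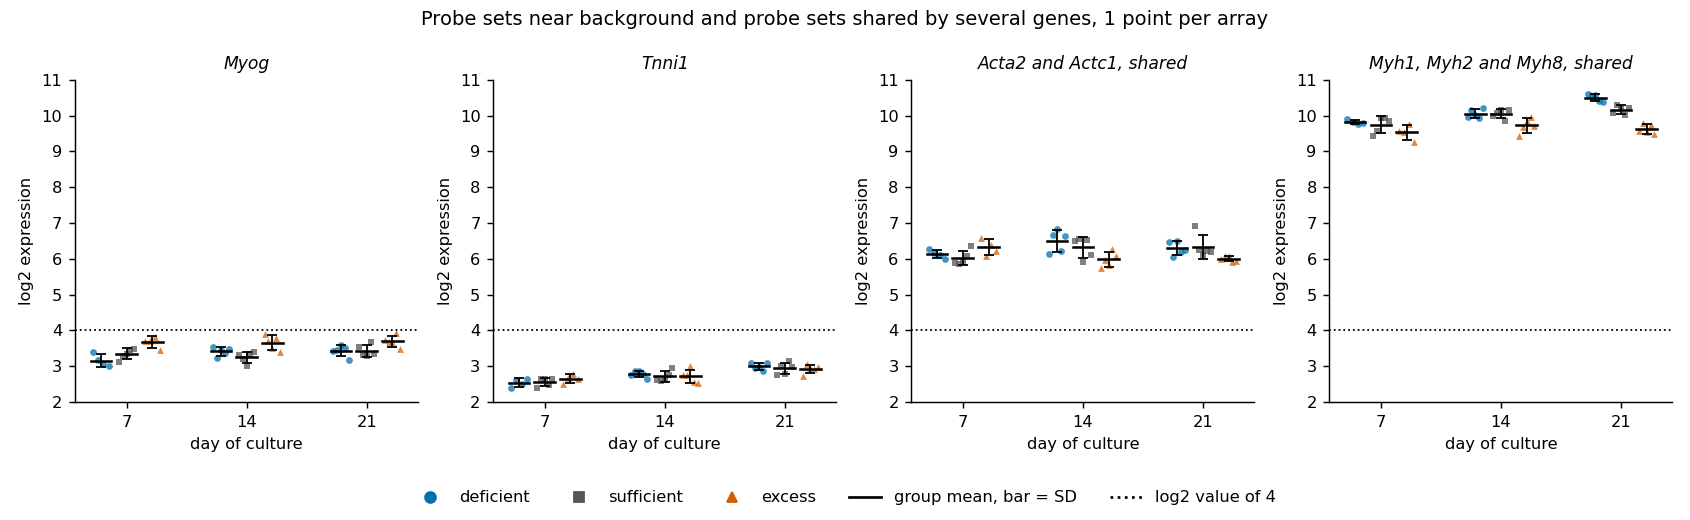
Log2 expression (vertical axis, same scale in each panel) against day of culture for Myog, Tnni1, the brightest probe set shared by Acta2 and Actc1 and the one shared by Myh1, Myh2 and Myh8, with 1 point per array by medium, a bar at the group mean and whiskers of 1 SD. All points of Myog and Tnni1 lie under the dotted line at 4, and the shared myosin probe set lies between 9.25 and 10.59.

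Other sarcomere genes were taken from a list of 37, of which 34 had a probe set of their own and 16 passed the filter. From day 7 to day 21 of sufficient medium 13 rose (29.6% of all genes) and 1, Xirp1, fell (33.1%), with a median of 1.58 against -0.02 over all genes. Of the 34, 22 were near background at day 7 of sufficient medium and 19 at day 21. Some of the 16 therefore started near background, and their rises are inexact. Counts and medians of this list describe its genes and support nothing about them as a set. The myosin light chains Myl4 and Myl1 rose by 4.10 ± 0.09 and 4.03 ± 0.12, and Myom2, a protein of the M band, by 3.50 ± 0.12. In excess medium 8 were lower than in sufficient medium at day 14 (18.8% of all genes) and 13 at day 21 (19.3%), with medians of -0.37 and -0.75. Myl2 was lower at day 21 by 2.34 ± 0.13, Myl1 by 1.97 ± 0.12 and Myl4 by 1.42 ± 0.09. The falls within the list were uneven, since Myom2 was lower by 0.36 ± 0.12 and Myh8, named after its value was seen, differed by 0.15 ± 0.13 (adjusted p = 0.40). Between deficient and sufficient medium at day 21, 0 of the 16 passed in limma, and 2 did at an unadjusted p below 0.05, as did 1118 of all 9095 genes.

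The partners that a troponin complex needs were not all above background. Tnni2 lay between group means of 3.19 and 3.35, Tnni3 between 2.64 and 2.85 and Tnnt3 between 2.36 and 3.60, so that no troponin I gene read here was above 4 in any group. Troponin C and T genes were, in the form of Tnnc1, Tnnc2, Tnnt1 and Tnnt2.

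**Figure D4:**
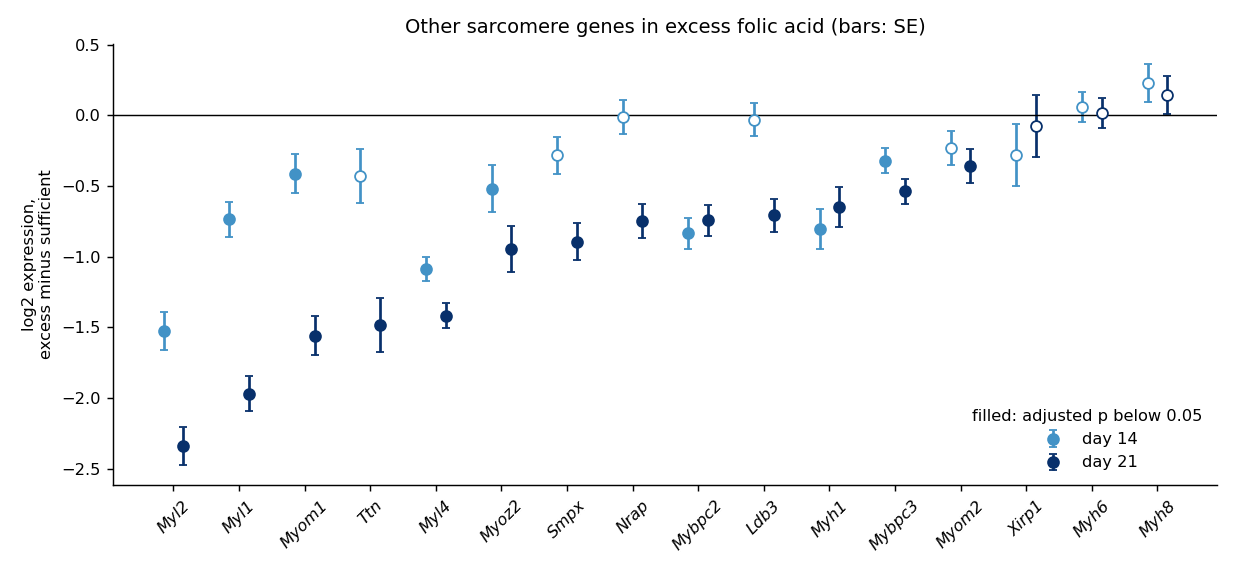
Difference in log2 expression of excess minus sufficient medium (vertical axis) for the 16 other sarcomere genes tested, at days 14 and 21, with bars of 1 SE and filled points where the adjusted p was below 0.05. Of the 16, 13 are lower at day 21, from -2.34 for Myl2 to -0.36 for Myom2.

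Of 7 myogenic regulators tested from a list of 17, 5 rose (29.6% of all genes) and 1 fell (33.1%) from day 7 to day 21 of sufficient medium. The one that fell was Myod1, the myogenic factor upstream of myogenin, from 4.51 to 2.56, into background. Mef2a rose by 0.97 ± 0.06. Unc45b, a myosin chaperone, rose by 1.30 ± 0.07 from 3.53, near background, so its difference is inexact. The counts of rises and falls therefore describe these genes and support nothing about the list. In excess medium at day 21, 2 were higher and 2 lower, shares near the 24.4% and 19.3% of all genes, with Six4 higher by 0.58 ± 0.11, Mef2c lower by 0.50 ± 0.07 and Unc45b by 0.40 ± 0.07. Of 9 partners and inhibitors of myogenin tested, Id1, Id2 and Id3, which block such factors, were lower in excess medium at day 21, by 2.71 ± 0.10, 2.34 ± 0.15 and 1.21 ± 0.14, and 3 others were higher, beside 19.3% of all genes lower and 24.4% higher. Id1 was the only one of the 9 to pass in deficient medium at day 21, higher by 0.58 ± 0.10 (adjusted p = 0.0012 in limma), where 0.407% of all genes were higher.

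Of 10 tested genes of muscle energy supply and calcium handling, 6 rose (29.6% of all genes) and 2 fell (33.1%) from day 7 to day 21 of sufficient medium. In excess medium at day 21, 7 were lower (19.3%) and 2 higher (24.4%). Cox6a2, the heart and muscle form of a cytochrome oxidase subunit, rose by 1.38 ± 0.10 and was lower in excess medium by 1.91 ± 0.10. Ckm, muscle creatine kinase, was at the edge of background, and was lower in excess medium by 0.73 ± 0.10. Of 2 tested endplate genes, 0 differed between excess and sufficient medium at day 21 in limma, also at an unadjusted p below 0.05.

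Of the 16 smooth muscle genes, 9 rose with time in sufficient medium (29.6% of all genes), with a median of 0.20. In excess medium at day 21, 10 were lower (19.3% of all genes) and the other 6 did not pass, with a median of -0.35. Mylk, myosin light chain kinase, was lower by 1.09 ± 0.07, Cnn1 by 0.82 ± 0.05 and Tagln by 0.39 ± 0.05. The summed linear level of the 16 was 83979 to 87770 in excess arrays of day 21 and 100582 to 111658 in sufficient ones. Of 8 actin, myosin and tropomyosin genes listed as non-muscle, 2 were lower in excess medium at day 21, a share near the 19.3% of all genes. These were Actg1, by 0.17 ± 0.05, and Myl9, by 0.22 ± 0.05, which is also a light chain of smooth muscle myosin.

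Markers of other cell types were taken as whole lists, and each list but the endothelial one held members above background in all 9 groups. Of 12 cardiomyocyte markers, some of which are also sarcomere genes in the list above, 7 lay near background in each medium at day 21, Nppa, Nppb, Gata4, Ryr2, Myl7, Myh6 and Tnni3. Nkx2-5, Hand2, Tbx5, Mybpc3 and Pln were above 4 there. Pln, phospholamban, rose by 4.24 ± 0.13 from day 7 to day 21 of sufficient medium and was lower in excess medium at day 21 by 0.47 ± 0.13. The markers did not go one way with time. Over the same days of sufficient medium Mybpc3 rose by 0.81 ± 0.09, from 3.85, near background, and Nkx2-5 fell by 0.39 ± 0.09. The summed linear level of the 12 was 2954 to 3955 in excess and 3808 to 4916 in sufficient arrays of day 21.

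Of 8 fibroblast markers, Col1a1 (group means of 13.38 to 14.22), Col3a1 (11.16 to 12.58), Thy1 (9.86 to 11.52) and Pdpn (7.95 to 9.01) were above background in all 9 groups, Lum only in excess medium at day 21, and Pdgfra, Dcn and Fap in none. In excess medium at day 21, 2 of the 5 tested were higher (24.4% of all genes), Lum by 2.88 ± 0.20 (from 2.42 to 5.30) and Col3a1 by 0.99 ± 0.11, and 1, Pdpn, was lower by 0.69 ± 0.09 (19.3%). Lum had a group mean above 4 only in the group where it is called higher. The count therefore describes these genes and supports nothing about the list, and the Lum difference is inexact. The summed fibroblast level was 18086 to 24006 in excess and 14980 to 22963 in sufficient arrays of day 21. Of 5 satellite cell markers on the array, Itga7 (8.43 to 9.51) and Sdc4 (10.26 to 10.62) were above background in all 9 groups, and Cdh15, Vcam1 and Calcr in none. Their summed level was 1590 to 2645 in excess and 1938 to 2825 in sufficient arrays of day 21.

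The endothelial markers Pecam1, Kdr, Tek and Emcn were near background in all 9 groups, and Vwf lay between group means of 3.67 and 4.01. Of 6 macrophage markers, Ptprc, Cd68, Csf1r, Aif1 and Adgre1 were near background in all 9 groups, and Cd14, at 5.47 to 6.38, was higher in excess medium at day 21 by 0.64 ± 0.18. The part of these markers in the differences was not tested.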

How the data were processed

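RNA from 43 samples of A7r5 cells was measured on Affymetrix Rat230_2 arrays. The deposited values are log2 expression made by the authors with GCRMA, and limma was also named, per the submitters' processing notes, which give no versions; scanner files were not used here. The table holds 31099 probe sets, of which 20832 have 1 symbol in the platform annotation, 436 have several and 9831 have no entry. Symbols were checked through gene identifiers in RefSeq (GRCr8), which matched 20764.

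The values were used as deposited. For each gene the probe set with the highest mean was kept, and genes with log2 above 4 in at least 4 arrays were fitted with limma 3.58.1 in R 4.3.3, with 1 mean per group over all 43 arrays, 20 contrasts, and Benjamini-Hochberg adjustment over 9095 genes at 0.05. Every adjusted p is from limma. The script was tested on simulated data.

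The members, the 12 gene lists and their tests were chosen with earlier results of these data known. Text names the 10 genes, the 3 genes most like each in group means, and up to 3 genes per list with the smallest adjusted p; those named beyond this (defining markers, Xirp1, Myh8, other troponins) were chosen after their values were seen. Alternatives covered the filter, probe set choice, second quantile normalization, array weights, variance model, array series, RNA quality, replicate block, groups fitted and each array left out. These 3 were added after seeing the data: serials above 45 only, low beta-actin difference only, and a fit of all probe sets.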

Additional observations from a re-analysis of the deposited data

Results flagged for a closer look

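In groups of 4 or 5 arrays, 4 of the 81 groups tested held an array set apart from the rest by Dixon's gap criterion, which chance alone gives in about 1 group in 20. Acta1 was at 7.50 in excess medium at day 7, replicate 4, where the others lay between 7.85 and 7.90. Tnnc2 was at 10.43 in replicate 1 of the same group, against 10.66 to 10.69. Tnnt2 was at 11.49 in excess medium at day 14, replicate 4, against 11.34 to 11.38. Tnnc2 was at 12.53 in deficient medium at day 21, replicate 4, against 12.63 to 12.67.

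The effect of a medium against sufficient medium differed between day 21 and day 7 by an interaction test in limma in 8 cases. For excess medium the differences of the effect were -2.498 for Acta1, -2.42 for Myh2, -1.78 for Myh3, -2.72 for Tnnt1, 0.87 for Tnnt2, -0.96 for Tnnc1 and 0.40 for Tnnc2, and for deficient medium 1.22 for Myh3. The day 7 levels of Myh2 and Myh3 lie at or near background.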

How the results depend on the processing

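Over the called differences of the 7 genes, the alternatives gave 2196 values, of which 0 changed sign and 80 missed the threshold. For excess minus sufficient medium at day 7, with 1 of the 7 genes called, the count was 2 with a term for the array series, 3 in serials up to 45, 3 with array weights, and 0 with only the groups compared, in serials above 45 or with low beta-actin difference; leaving out each array gave 0 to 2. For deficient minus excess medium at day 7, with 2 called, it was 0 with the replicate block, with a second quantile normalization and with only the groups compared, and 1 with a term for the array series; leaving out each array gave 0 to 2. For deficient minus sufficient medium at day 14, with 0 called, it was 1 with a term for the array series, with array weights and with a variance trend and robust fit; leaving out each array gave 0 to 1. At day 21, with 3 called, it was 1 with only the groups compared and 1 to 3 when leaving out each array, the 1 without deficient replicate 6. For the change of the deficiency effect, with 1 called, it was 2 with a term for the array series and with array weights; leaving out each array gave 1 to 2. Serials above 45 alone left 4 called of 7 from day 7 to day 14 and 1 of 5 from day 14 to day 21 in sufficient medium, 4 of 7 from day 14 to day 21 in excess medium, and 4 of 7 for the change of the excess effect, without Myh2, Myh3 and Tnnc2. This setting has 1 array in each of deficient day 14, sufficient days 7 and 14 and excess day 7, so single arrays are assumed to vary like the other groups. With the replicate block, 6 of 7 remained called for excess minus sufficient medium at day 21. No pairing by replicate number was evident, although these values cannot exclude one. Over 133 same-number pairs the correlation of deviations ran from -0.54 to 0.59 with a median of -0.01, and 9 of 43 arrays correlated best with their own number. Values near background limit the folds of Myh2 and Myh3 that involve day 7, and of Myh2 that involve excess medium.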
